A study of Homo sapiens with 6 samples.

Results

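The airway epithelial lineage transcription factors examined here were 10 genes, *TP63*, *SOX2*, *KLF5*, *FOXA1*, *FOXA2*, *NKX2-1*, *SPDEF*, *FOXJ1*, *GRHL2* and *ELF3*, chosen by name from textbook knowledge of airway cell types and found by their symbols among the 61228 gene names of the deposited count and TPM tables. The choice of these factors and of the gene lists below was made with earlier results of these data known. All 10 factors had a row. The libraries came from an immortalized line of human bronchial epithelial cells (HBE cells), of wild-type genotype, which the study kept in DMEM with fetal bovine serum. In 3 libraries the cells had received cockroach extract (CRE), an airway allergen, and in the other 3 they had received VAF347, an agonist of the aryl hydrocarbon receptor (AhR), before CRE, with RNA labelled as taken at 24 h. CRE was thus common to both groups, and the one comparison possible is CRE+VAF347 (n = 3) against CRE (n = 3). Cells without CRE, or with VAF347 alone, were not analysed here. The cells were 1 line and the labels do not say that replicates came from separate cultures, so p-values measure the spread between these libraries, which may be technical.

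Lineage transcription factors bind regulatory DNA and keep the gene programme of a cell type active. In the airway, *TP63* maintains basal cells, the stem cells of the lining, and *SOX2* specifies the conducting airway. *KLF5* is a zinc finger factor of proliferating epithelium. *FOXA1* and *FOXA2* are forkhead pioneer factors that open chromatin in endoderm-derived tissue, *NKX2-1* specifies lung and thyroid, *SPDEF* drives mucous (goblet) differentiation, and *FOXJ1* is the master regulator of motile cilia. *GRHL2*, a grainyhead factor, holds junction and epithelial genes on, and *ELF3* is an ETS factor restricted to epithelia that inflammatory signals induce. AhR itself is a ligand-activated factor whose classic target is *CYP1A1*.

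The libraries held 8873160 to 10750283 estimated counts in genes, so that 1 count was worth 0.0930 to 0.113 CPM (the count scaled to a library total of 1000000). The treatment label was checked on *CYP1A1*, with 6, 8 and 5 counts after CRE alone and 454, 412 and 460 counts after VAF347 and CRE. All 4 AhR response genes listed (*CYP1A1*, *CYP1B1*, *AHRR* and *TIPARP*) rose, by 2.16 to 6.20 on the log2 scale. The quasi-likelihood test of edgeR was run over the 15373 genes that passed the filter on low counts. A gene was called when its adjusted p (Benjamini-Hochberg) was under 0.05 and its log2 fold change exceeded 0.5 in size. With this rule 263 genes fell and 77 rose, 2.21% of the genes tested, and the median log2 fold change of all genes tested was 0.01. The CRE replicate 3 library stood apart from its group: the mean chi-square per gene was 9.25 against replicate 1 and 8.97 against replicate 2, while replicates 1 and 2 gave 2.47 and the CRE+VAF347 pairs 1.77 to 2.56. Values without that library are therefore given beside several of the results, though not beside all that it moved.

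The 10 factors spanned from abundant to undetected. On the TPM scale (transcript abundance corrected for transcript length and scaled to a library sum of 1000000), *ELF3* led at 377 ± 22.4 in CRE and 266 ± 6.37 in CRE+VAF347 (mean ± SD, n = 3), a higher mean over the 6 libraries than 99.2% of all gene names. *GRHL2* followed at 51.5 ± 10.1 and 47.1 ± 1.16 TPM, and *KLF5* at 12.7 ± 0.715 and 10.4 ± 0.391 TPM. These 3 levels did not overlap between genes in any library. *FOXA1* (0.678 to 1.41 TPM) and *FOXJ1* (0.281 to 0.856 TPM) came next. Their ranges over the 6 libraries overlapped, although *FOXA1* was the higher of the pair in each library. *FOXA2* (0 to 0.210 TPM), *SPDEF* (0 to 0.137 TPM) and *TP63* (0 to 0.134 TPM) rested on 12, 3 and 2 counts over all 6 libraries and could not be ordered, and *SOX2* and *NKX2-1* had 0 counts in every library. *ELF3* alone made up 83.6 to 85.9% of the summed TPM of the 10 factors in the CRE libraries and 81.5 to 82.1% in the CRE+VAF347 libraries.

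**Figure D1:**
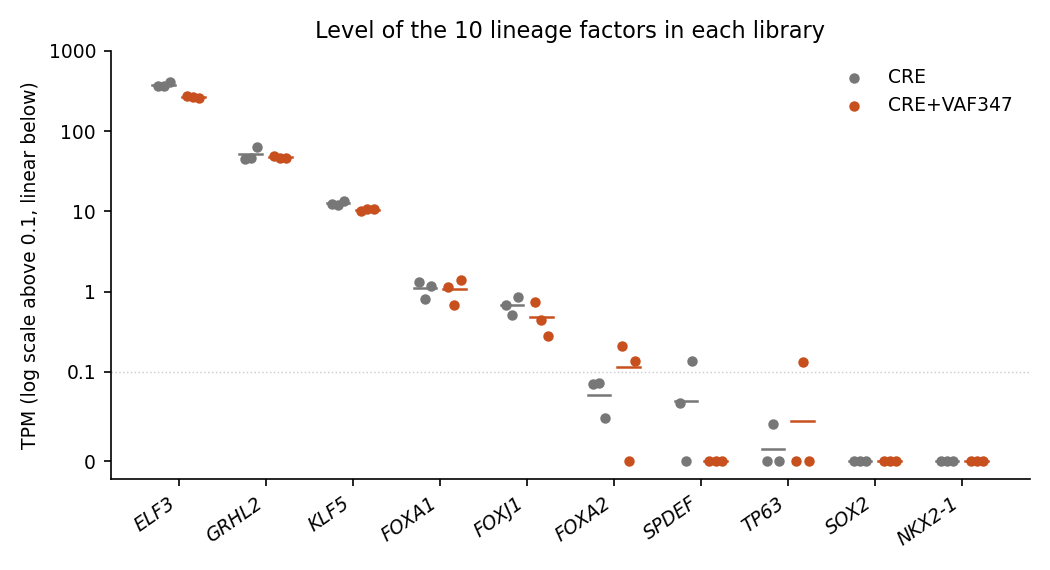
TPM of each of the 10 factors (x axis) in each library (points, grey for CRE and orange for CRE+VAF347), with the mean of 3 libraries as a short line. The y axis is logarithmic above 0.1 TPM and linear below. *ELF3*, *GRHL2* and *KLF5* lie above 9 TPM in every library, *FOXA1* and *FOXJ1* near 1 TPM, and the other 5 at or near 0.

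Of the 10 factors, 5 passed the filter and were tested (*ELF3*, *GRHL2*, *KLF5*, *FOXA1* and *FOXJ1*). One of them, *ELF3*, was called lower with VAF347 and none was called higher, beside 1.71% of all genes tested that were called lower. Both *ELF3* and *KLF5* had all 3 CRE+VAF347 libraries below all 3 CRE libraries in CPM, as 14.8% of all genes tested did. At an adjusted p under 0.05 with no limit on the fold change, *ELF3* was again the single factor to pass, beside 5.42% of all genes. In a population of cells, fewer cells of a type and less RNA per cell cannot be told apart. An exact permutation test of 3 libraries against 3 cannot give a two-sided p below 0.1, so the test across all genes was used throughout.

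*ELF3* (ENSG00000163435.16, chr1:202007945-202017183 on the plus strand, GRCh38) had 4632, 4907 and 5071 counts in the 3 CRE replicates, while the 3 CRE+VAF347 replicates had 2937, 3259 and 3123. Scaled to depth these were 479.6, 481 and 474 CPM against 330.0, 343 and 312 CPM. The CRE libraries lay within a narrow band and every CRE+VAF347 library lay well below it. *ELF3* fell by 0.54 on the log2 scale (SE 0.059, 95% interval -0.67 to -0.41, adjusted p = 0.00051, edgeR), a difference of -31.4%. On the TPM scale the CRE libraries read 365, 362 and 403 and the CRE+VAF347 libraries 270.5, 269 and 259, again without overlap. Without CRE replicate 3 the log2 fold change of *ELF3* was -0.55. The size of the change lay close to the 0.5 limit on fold change: limma on log2(TPM + 1) gave -0.499 with an adjusted p of 0.022, just under that limit, so the call ended there. Without the filter on low counts the same limma test also missed the adjusted p threshold (0.11). Log2 fold changes over 11110 well-expressed genes fell with the GC content of the transcripts (Spearman rho -0.36 across genes, which are not independent replicates). *ELF3* transcripts hold 56.9% GC, above the median of 49.3% for the genes tested. With an offset for GC content the log2 fold change of *ELF3* was -0.5002 (adjusted p = 0.00090, edgeR). That value lies at the 0.5 limit, so the call was kept only barely.

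**Figure D2:**
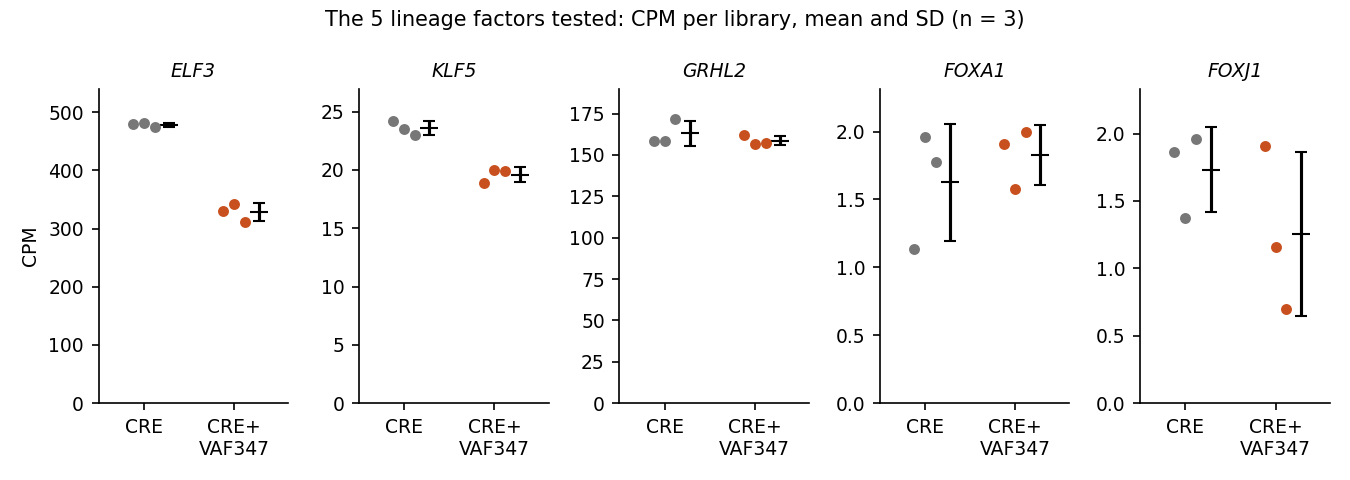
CPM of the 5 tested factors in each library (points, in replicate order from left to right), with the mean and SD of 3 libraries beside them. Each panel has its own y axis from 0. The groups do not overlap for *ELF3* and *KLF5* and overlap for *GRHL2*, *FOXA1* and *FOXJ1*.

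The promoters of *ELF3* and *KLF5* are shown because these were the 2 tested factors whose libraries did not overlap between groups. Each window runs from 250 bases before to 50 bases after a RefSeq start (GRCh38.p14, plus strand) and is written 5′ to 3′ in lower case, with matches to the searched motifs in capitals. The motifs were the AhR core GCGTG, the TATA box TATAAA and the kappaB consensus, searched on both strands and chosen after the expression values had been seen. They do not overlap each other in these windows. *ELF3* has 1 window, at chr1:202010337-202010636, and *KLF5* has 2, at chr13:73054726-73055025 and chr13:73058755-73059054.
ELF3: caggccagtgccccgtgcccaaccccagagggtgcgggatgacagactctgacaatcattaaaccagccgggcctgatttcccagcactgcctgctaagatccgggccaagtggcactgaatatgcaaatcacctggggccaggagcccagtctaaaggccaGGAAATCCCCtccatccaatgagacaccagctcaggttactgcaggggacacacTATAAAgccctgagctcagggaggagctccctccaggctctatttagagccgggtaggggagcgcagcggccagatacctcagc
KLF5, upstream start: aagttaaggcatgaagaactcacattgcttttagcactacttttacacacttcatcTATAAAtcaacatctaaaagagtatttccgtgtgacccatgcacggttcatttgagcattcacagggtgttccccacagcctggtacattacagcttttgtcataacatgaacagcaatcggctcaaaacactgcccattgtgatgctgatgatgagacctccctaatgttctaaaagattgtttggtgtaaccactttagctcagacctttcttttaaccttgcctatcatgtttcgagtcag
KLF5, downstream start: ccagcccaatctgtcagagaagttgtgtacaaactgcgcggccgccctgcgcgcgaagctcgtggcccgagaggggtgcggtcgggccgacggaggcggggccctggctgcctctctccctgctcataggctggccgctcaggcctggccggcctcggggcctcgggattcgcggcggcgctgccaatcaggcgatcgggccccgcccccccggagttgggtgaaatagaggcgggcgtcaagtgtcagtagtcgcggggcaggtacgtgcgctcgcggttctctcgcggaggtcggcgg
The *ELF3* window is 59% GC and holds a TATAAA that begins at position -34 from the start and a kappaB consensus match on the minus strand that begins at position -88. No GCGTG is in it. The upstream *KLF5* window, 40.7% GC, holds a TATAAA at position -194, and the downstream one, 71.3% GC, holds none of the 3 motifs. Among 35116 promoter windows of the same length, 36.5% hold GCGTG, 11.5% hold TATAAA and 5.91% hold the kappaB consensus. Of the 10 factors, 7 matched an entry of the promoter table. These matches are letters in a window and say nothing of binding, which was not measured.

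The upstream end of the annotated *ELF3* gene lies opposite *ELF3-AS1*, a long non-coding RNA on the minus strand that overlaps it over 2519 bases. *ELF3-AS1* had 186, 194 and 182 counts in CRE and 130, 113 and 114 in CRE+VAF347, and it fell by 0.55 on the log2 scale (SE 0.12, adjusted p = 0.023, edgeR). That call was lost without any 1 of 4 libraries: the log2 fold change was -0.52 without CRE replicate 1 (adjusted p = 0.065), -0.52 without CRE replicate 2 (0.076), -0.52 without CRE+VAF347 replicate 2 (0.11) and -0.48 without CRE+VAF347 replicate 3 (0.12). On the TPM scale its groups overlapped (5.42 to 7.70 against 4.21 to 6.81), and limma gave -0.23 on log2(TPM + 1) (adjusted p = 0.75) and -0.27 with a pseudocount of 0.1. Whether counting used strand is not given in the sources used here, so reads of the antisense pair cannot be assigned with certainty. Its 919 counts compare with 23929 for *ELF3*. A further non-coding gene on the plus strand within *ELF3*, ENSG00000249007, had 14, 23 and 24 counts against 16, 19 and 14, and was not called (log2 fold change -0.21, adjusted p = 0.72).

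*KLF5* (ENSG00000102554.14, chr13:73054976-73077541, plus strand) had 234, 240 and 246 counts in CRE and 168, 190 and 200 in CRE+VAF347. In CPM the CRE libraries stood at 24.2, 23.5 and 23.0 and the CRE+VAF347 libraries at 18.9, 20.0 and 20.0, without overlap. Its log2 fold change of -0.27 (SE 0.084, 95% interval -0.45 to -0.08, edgeR) missed the threshold at an adjusted p of 0.097. Without CRE replicate 3 it was -0.28 (adjusted p = 0.073), the lowest adjusted p of the 17 alternatives. The others ran up to 0.64, with 0.34 in DESeq2's Wald test and 0.52 in limma on log2(TPM + 1). On the TPM scale the groups did not overlap either, at 12.1 to 13.5 against 9.99 to 10.7. The ratio of *ELF3* to *KLF5* in TPM ranged from 29.6 to 29.9 in CRE and from 24.1 to 27.1 in CRE+VAF347.

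*GRHL2* (ENSG00000083307.12, plus strand) had 1532, 1616 and 1838 counts in CRE and 1442, 1490 and 1577 in CRE+VAF347, which is 159, 159 and 172 CPM against 162, 157 and 157 CPM. The groups overlapped and the high value was CRE replicate 3, which also had the highest TPM, 63.1 against 45.4 and 45.9 in its group. The log2 fold change was -0.04 (SE 0.059, 95% interval -0.17 to 0.09, adjusted p = 0.75, edgeR), and 0.00031 without CRE replicate 3. At these counts the interval leaves out any change as large as the 0.5 limit in either direction. The ratio of *ELF3* to *GRHL2* in TPM was 8.05, 7.89 and 6.38 with CRE and 5.58, 5.76 and 5.60 with CRE+VAF347, without overlap.

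**Figure D3:**
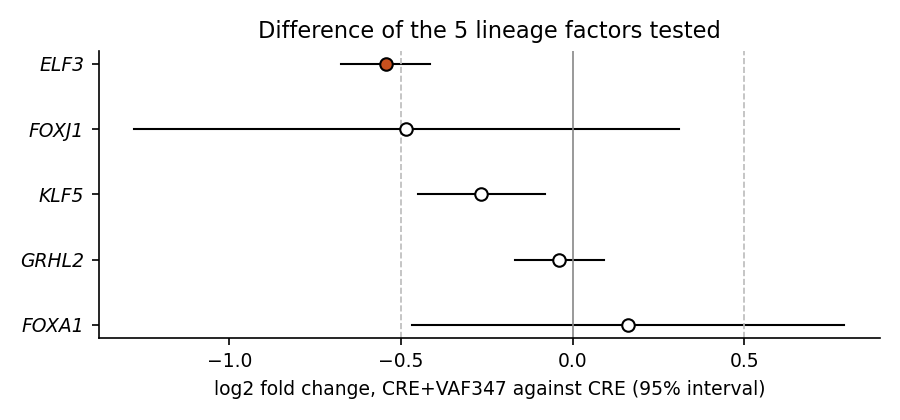
Log2 fold change (x axis, CRE+VAF347 against CRE) of the 5 tested factors, with 95% intervals from the edgeR fit as lines. Dashed lines mark the 0.5 limit and the filled point is the called gene. *ELF3* lies at -0.54, the interval of *GRHL2* stays within -0.17 to 0.09, and those of *FOXA1* and *FOXJ1* cross 0 widely.

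The 22 genes of a list of epithelial genes linked to *GRHL2* were all tested. Beside 2.21% of all genes tested called in either direction, 0 of the 22 were called. Their median log2 fold change was -0.024, and it was -0.060 without CRE replicate 3, -0.036 without CRE replicate 2, -0.057 without CRE+VAF347 replicate 1, -0.058 without CRE+VAF347 replicate 3, -0.0065 with the GC offset and -0.078 in limma on log2(TPM + 1). At an adjusted p under 0.05 with no limit on fold, 3 of them passed, all lower. Under that rule 5.42% of all genes tested passed, 626 lower and 207 higher. Among the 3 were the membrane protease *PRSS8* (log2 fold change -0.30, adjusted p = 0.021, edgeR) and the adaptor *GRB7* (-0.34, adjusted p = 0.037). The tight junction gene *CLDN4* stood at 957 and 934 TPM, the adhesion gene *EPCAM* at 544 and 517, the protease inhibitor *SPINT2* at 496 and 463, and E-cadherin, *CDH1*, at 286 and 247. All 22 had a mean of at least 1 TPM, so the cells carried an epithelial programme in both groups.

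The basal factors were at or near the limit of detection. *TP63* (ENSG00000073282.14, chr3:189631389-189897276, plus strand) had 1 count in CRE replicate 2, 1 in CRE+VAF347 replicate 2 and 0 in the other 4 libraries. *SOX2* (ENSG00000181449.4, chr3:181711925-181714436, plus strand) had 0 counts in all 6, which allows up to 3 counts, or 0.279 to 0.338 CPM, in each library. These limits cover counting error only. No comparison between groups was detectable at this depth for either gene. *TP73*, a paralog of *TP63*, was present, at 12.9 and 10.9 TPM (log2 fold change -0.20, adjusted p = 0.12).

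Among 20 basal cell markers, 16 had a mean of at least 1 TPM and 15 were tested. Their median log2 fold change was -0.23 and 14 of 15 values lay below 0, beside a median of 0.01 over all genes tested. The list was not tested as a set. Of the 15, 1 was called lower and 0 higher, beside 1.71% of all genes tested that were called lower. The gene called was *COL17A1*, the hemidesmosome collagen, at 39.8, 49.8 and 53.3 TPM in CRE and 42.1, 30.7 and 25.6 TPM in CRE+VAF347. It fell by 0.65 (SE 0.11, adjusted p = 0.0056, edgeR on counts), although the groups overlapped on the TPM scale, where limma on log2(TPM + 1) gave -0.54 with an adjusted p of 0.22. The most abundant markers were caveolin 1 (*CAV1*, 316 and 209 TPM, log2 fold change -0.47, adjusted p = 0.0013, under the fold limit), P-cadherin (*CDH3*, 210 and 179), keratin 17 (*KRT17*, 166 and 133, -0.27, adjusted p = 0.024) and integrin beta 4 (*ITGB4*, 75.6 and 62.4, -0.36, adjusted p = 0.033). Keratin 5, the usual partner of *TP63* in naming basal cells, stood at 9.87 ± 0.127 and 7.52 ± 0.269 TPM (*KRT5*, log2 fold change -0.37, adjusted p = 0.077), while keratin 14 had 4 counts in all. The line thus carried several basal markers with *TP63* near 0, so by that gene the label of airway epithelium could not be narrowed to basal cells.

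The endodermal and secretory factors were low. *FOXA1* (ENSG00000129514.8, chr14:37589552-37596059, minus strand) had 11, 20 and 19 counts in CRE and 17, 15 and 20 in CRE+VAF347, or 1.14, 1.96 and 1.78 CPM against 1.91, 1.58 and 2.00 CPM. The groups overlapped, and the log2 fold change of 0.16 (SE 0.29, 95% interval -0.47 to 0.79, adjusted p = 0.79, edgeR) became -0.030 without CRE replicate 1, the lowest library. *FOXA2* (ENSG00000125798.15, chr20:22580998-22585455, minus strand) had 2, 2 and 1 counts against 4, 0 and 3 and was not tested. *NKX2-1* (ENSG00000136352.20, chr14:36516392-36521149, minus strand) had 0 counts in every library, as did its neighbours *SFTA3* and *NKX2-1-AS1*. *SPDEF* (ENSG00000124664.11, chr6:34537802-34556333, minus strand) had 1, 0 and 2 counts in CRE and 0 in each CRE+VAF347 library, both within the 3 counts that a count of 0 allows, so no fold is given.

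Of 30 secretory and goblet cell markers, 13 had 0 counts in every library, among them *SCGB1A1*, the club cell secretoglobin, and *MUC5AC*, the goblet cell mucin, and *MUC5B* had 2 counts in all. In contrast 11 had a mean of at least 1 TPM. The highest were the antiproteases *WFDC2* (771 and 732 TPM) and *SLPI* (366 and 261 TPM, log2 fold change -0.47, adjusted p = 0.070). Of the 10 tested, 4 were called lower and 0 higher, beside 1.71% of all genes tested that were called lower. Their median log2 fold change was -0.48, beside 0.01 over all genes tested. The list was not tested as a set. The siderophore-binding protein *LCN2* fell by 0.99 (SE 0.12, adjusted p = 0.00069), from 330.4, 413 and 317 TPM in CRE to 192, 190.0 and 156 TPM. The membrane mucins *MUC16* and *MUC1* fell by 0.94 (SE 0.12, adjusted p = 0.0012) and 0.68 (SE 0.11, adjusted p = 0.0055). Without CRE replicate 3 the log2 fold changes were -1.09 for *LCN2*, -0.85 for *MUC16* and -0.56 for *MUC1*. The fucosyltransferase *FUT3* fell by 0.61 (SE 0.16, adjusted p = 0.049), a call lost without CRE replicate 2 (adjusted p = 0.091), CRE replicate 3 (0.066), CRE+VAF347 replicate 2 (0.19) or CRE+VAF347 replicate 3 (0.19). Another membrane mucin, *MUC4*, was higher by 0.46 (SE 0.085, adjusted p = 0.010), under the fold limit. So of the mucins named here those with measurable levels were membrane mucins, while the secreted *MUC5AC* and *MUC5B*, and *SPDEF*, were at or near 0.

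*FOXJ1* (ENSG00000129654.8, chr17:76136333-76141245, minus strand) had 18, 14 and 21 counts in CRE and 17, 11 and 7 in CRE+VAF347, or 1.86, 1.37 and 1.96 CPM against 1.91, 1.16 and 0.698 CPM. The groups overlapped, with CRE+VAF347 replicate 3 the lowest library. The log2 fold change was -0.48 (SE 0.36, 95% interval -1.28 to 0.31, adjusted p = 0.49, edgeR), and it ran from -0.91 without CRE+VAF347 replicate 1 (adjusted p = 0.28) to -0.19 without CRE+VAF347 replicate 3 (adjusted p = 0.84). A change of the size seen for *ELF3* was not detectable at this depth. *RNF157-AS1*, on the opposite strand, overlaps *FOXJ1* over 2814 bases and had 154 counts in all against 88 for *FOXJ1* (log2 fold change -0.23, adjusted p = 0.68). That value was -0.99 in limma on log2(TPM + 1) and -1.28 with a pseudocount of 0.1 (both adjusted p = 0.093), and on the TPM scale its groups did not overlap, at 3.13 to 7.30 against 1.70 to 1.94. Without CRE+VAF347 replicate 3 it was -0.026. Its reads and those of *FOXJ1* cannot be told apart with certainty.

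Of 36 multiciliated cell factors and markers, 20 were tested, 1 was called lower and 0 higher, beside 1.71% of all genes tested called lower. The median log2 fold change of the list was -0.25, or -0.16 without CRE replicate 3, and it was not tested as a set. The gene called was *CAPS*, calcyphosine, a calcium-binding protein, at 11.3, 13.1 and 13.7 TPM in CRE and 9.37, 7.71 and 6.70 TPM in CRE+VAF347. It fell by 0.68 (SE 0.12, adjusted p = 0.0081, edgeR), and the call was lost without CRE+VAF347 replicate 3 (-0.60, adjusted p = 0.051). The most abundant genes of the list are also used outside motile cilia: the tubulins *TUBB4B* (712 and 788 TPM) and *TUBA1A* (44.3 and 33.8 TPM, log2 fold change -0.38, adjusted p = 0.0097, under the fold limit), the centriole kinase *PLK4* (93.5 and 78.3 TPM) and the cell cycle factor *E2F4* (79.6 and 78.0 TPM). *MCIDAS*, which acts above *FOXJ1* in ciliated differentiation, stood at 3.53 and 2.73 TPM. The dynein genes *DNAI2* and *DNAH9* and the ciliary gene *SNTN* had 0 counts in every library.

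**Figure D4:**
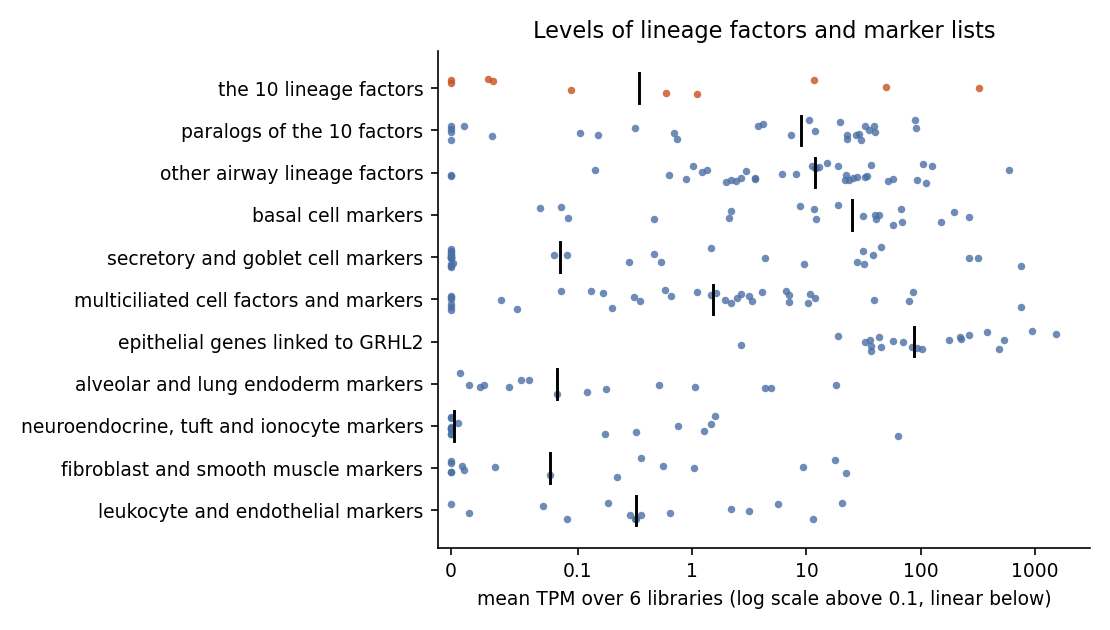
Mean TPM over 6 libraries (x axis, logarithmic above 0.1 and linear below) of each gene in the 10 lineage factors and in 10 marker or family lists (y axis), 1 point a gene, with the list's median as a vertical line. The genes linked to *GRHL2* all lie above 1 TPM, while many secretory, alveolar and neuroendocrine markers lie at or near 0.

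Family members of the 10 factors were compared from a list of 28 paralogs, which was not tested as a set. Beside 1.71% of all genes tested called lower, 2 of the 19 paralogs tested were called lower and 0 higher. Their median log2 fold change was -0.031, and with 1 library left out it ran from -0.11 without CRE replicate 2 to 0.0074 without CRE replicate 3, with -0.094 without CRE+VAF347 replicate 1. The genes called were both of the family of *KLF5*: *KLF11* fell by 0.58 (SE 0.14, adjusted p = 0.033) and *KLF7* by 0.57 (SE 0.14, adjusted p = 0.035). *KLF11* lost its call without CRE replicate 1 (-0.54, adjusted p = 0.084), CRE replicate 2 (-0.62, 0.066), CRE+VAF347 replicate 2 (-0.64, 0.086) or CRE+VAF347 replicate 3 (-0.43, 0.11). *KLF7* kept its call when CRE replicate 1 was left out but lost it without CRE replicate 2 (-0.61, 0.071), CRE replicate 3 (-0.45, 0.046), or CRE+VAF347 replicate 1 (-0.48, 0.12), 2 (-0.60, 0.10) or 3 (-0.66, 0.067). Among the ETS relatives of *ELF3*, *ELF1* stood at 89.4 and 89.1 TPM (log2 fold change 0.04, 95% interval -0.10 to 0.17), *ETS1* at 40.5 and 39.0 (-0.01, adjusted p = 0.97), *ELF4* at 37.8 and 40.7, and *EHF*, another epithelial member of its subgroup, at 0.776 and 0.708 TPM. *ETS2* stood at 40.9 and 29.2 TPM without overlap in CPM, as 14.8% of all genes tested did in that direction. Its log2 fold change of -0.41 (SE 0.066, adjusted p = 0.0053, edgeR) was past the adjusted p but under the fold limit. So *ELF3* was not alone among these ETS genes in being lower. *ELF3* was the most abundant of the ETS genes examined. Of the grainyhead genes, *GRHL1* stood at 23.7 and 21.1 TPM (-0.12, adjusted p = 0.43). *GRHL3* stood at 3.08 and 4.43 TPM, with all 3 CRE+VAF347 libraries above the CRE libraries in CPM and an adjusted p of 0.092 (log2 fold change 0.58). The share of all genes that lay above in this way is not given here. *FOXA3* had 12 counts in all.

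Of 38 other factors of airway lineages, 34 were tested, 2 were called lower and 2 higher. Among all genes tested 1.71% were called lower and 2.21% in either direction. The median log2 fold change of the list was -0.10, or -0.16 without CRE+VAF347 replicate 1, and it was not tested as a set. The genes called lower were *SOX4* and *SOX9*. *SOX4*, a factor of progenitor and stressed epithelium, stood at 39.7, 41.4 and 47.7 TPM in CRE and 22.5, 24.1 and 21.0 TPM in CRE+VAF347 and fell by 0.89 (SE 0.070, adjusted p = 5.9e-05). *SOX9*, a factor of distal lung progenitors and glands, stood at 27.0, 25.2 and 38.2 TPM against 16.2 to 17.6 TPM and fell by 0.83 (SE 0.10, adjusted p = 0.00091), or by 0.70 without CRE replicate 3, its highest library. Neither gene's groups overlapped. *SOX15* went the other way, at 29.4 and 38.9 TPM (log2 fold change 0.40, SE 0.070, adjusted p = 0.0076), under the fold limit. All 3 of its CRE+VAF347 libraries lay above the CRE libraries, and the share of all genes that did so is not given here. The genes called higher were *HES1*, a transcriptional repressor downstream of Notch (17.8 and 25.7 TPM, log2 fold change 0.52, SE 0.096, adjusted p = 0.010), and *JAG1*, a Notch ligand (1.65 and 2.69 TPM, 0.65, SE 0.16, adjusted p = 0.034). The 7 other Notch receptors, ligands and effectors of the list were not called, and the log2 fold changes of the 6 that were tested lay below 0: *NOTCH1* -0.26, *NOTCH2* -0.04, *NOTCH3* -0.20, *DLL1* -0.21, *JAG2* -0.16 and *HEYL* -0.64 (adjusted p 0.062 to 0.77). *HES1* lost its call without CRE replicate 1 (0.46, adjusted p = 0.038), CRE+VAF347 replicate 1 (0.48, 0.058) or CRE+VAF347 replicate 2 (0.48, 0.069). *JAG1* lost its call without CRE replicate 2 (0.65, adjusted p = 0.096), CRE replicate 3 (0.58, 0.058), or CRE+VAF347 replicate 1 (0.70, 0.072), 2 (0.65, 0.12) or 3 (0.58, 0.16). Among the most abundant factors of the list were *YBX1* (620.0 and 567 TPM), *FOXM1* (112 and 108 TPM) and *ID3* (118 and 90.2 TPM), and none of these 3 was called.

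Of the 15 listed genes called outside the AhR response, 12 were not called by limma on log2(TPM + 1), and those that were are *SOX4*, *SOX9* and *LCN2*. In each list of markers of other cell types, 4 or 5 genes had a mean of at least 1 TPM. Their part in the results above was not tested. The counts called in these lists stand beside 1.71% of all genes tested called lower and 2.21% called in either direction. No list was tested as a set. Of 15 alveolar and lung endoderm markers 3 were tested and 0 called, with a summed level of 28.3 to 34.7 TPM in CRE and 26.0 to 30.03 TPM in CRE+VAF347, and the surfactant gene *SFTPC* had 2 counts in all. Of 16 neuroendocrine, tuft and ionocyte markers 4 were tested and 0 called (62.6 to 82.6 against 60.7 to 67.0 TPM, most of it the chloride channel *CFTR*). Of 15 fibroblast and smooth muscle markers 6 were tested and 0 called (52.3 to 56.8 against 48.2 to 49.5 TPM), with *PDGFRA*, *DCN* and *LUM* at 0 counts. Of 15 leukocyte and endothelial markers 6 were tested and 3 were called lower (47.7 to 54.8 against 32.9 to 41.3 TPM), namely *CDH5* (-0.84, adjusted p = 0.0012), *VWF* (-1.45, adjusted p = 0.011) and *CSF1R* (-0.59, adjusted p = 0.027), while the defining genes *PTPRC* and *PECAM1* had 3 and 4 counts in all. The call of *VWF* was lost without CRE+VAF347 replicate 2 (adjusted p = 0.063) or 3 (0.059), and that of *CSF1R* without CRE replicate 2 (0.097) or CRE+VAF347 replicate 1 (0.053), 2 (0.090) or 3 (0.13).

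The genes whose log2 CPM followed *ELF3* most closely over the 6 libraries were *SOX4* (Pearson r 0.999), *PDZK1*, a scaffold protein of apical membranes (0.999), and *CDKN2B*, a cyclin-dependent kinase inhibitor (0.998). All 3 were called lower, by 0.89, 1.16 and 0.88 on the log2 scale. With 2 groups of 3 libraries such values mostly describe the split between groups, and 755 genes had r over 0.9.

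**Figure D5:**
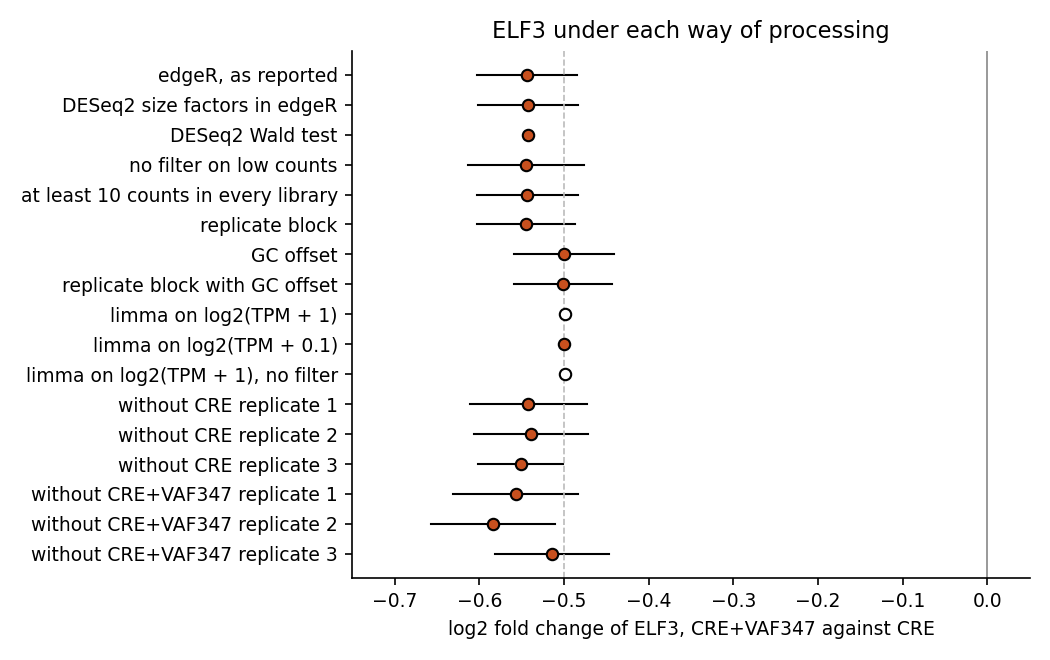
Log2 fold change of *ELF3* (x axis) under the edgeR fit as reported and 16 other ways of processing (y axis). Lines are 1 SE of the edgeR fits, and the DESeq2 and limma points carry none. Filled points were called, and the dashed line marks the 0.5 limit. Values run from -0.58 to -0.50, and the 2 open points, limma on log2(TPM + 1) with and without the filter, lie just short of the limit. The point without the filter also missed the adjusted p threshold (0.11, limma).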

How the data were processed

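Poly(A) RNA of 6 libraries of HBE cells (3 CRE, 3 CRE+VAF347) was sequenced as paired ends. The authors quantified reads with Salmon and deposited estimated counts and TPM per gene symbol, and the labels give the build hg38. The Salmon version, the annotation and the use of strand are not given in the sources used here. A deposited table of the authors' own fold changes and p-values was not used. In the deposited counts 14.5% of values were not whole, so they were rounded. Library totals were 9805976, 10319608 and 10750283 (CRE) and 8873160, 9468482 and 9917913 (CRE+VAF347).

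Genes passing filterByExpr were fitted in edgeR 4.0.16 (R 4.3.3) with TMM scaling by the quasi-likelihood method, and p-values were adjusted over all genes tested (Benjamini-Hochberg). On simulated data for this comparison (15153 genes), 98 of 99 genes changed by a log2 fold of 2 and 82 of 96 changed by 1 were called. Among the unchanged genes 7 were called. Changes as small as that of *ELF3*, a GC trend and an outlying library were not simulated. Recovery of a change of that size is therefore not known from it. Alternatives used limma 3.58.1 and DESeq2 1.42.0, other filters, scalings and pseudocounts (1 and 0.1), a GC offset, a replicate block, and leaving out each library. Groups came from the labels. Gene positions came from GENCODE 44 and promoter sequences from RefSeq.

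The factors and the gene lists were chosen with earlier results of these data known. Named were the 10 factors, every listed gene called, the 4 genes of highest mean TPM in each list, the AhR response genes, genes overlapping a factor, and the 3 genes most like each called factor. Other genes named (defining markers at or near 0 counts, paralogs and other family members, and genes past the adjusted p only) were chosen after their values were seen. A few genes that the rule would name are not reported here.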

Additional observations from a re-analysis of the deposited data

How the results depend on the processing

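The log2 fold change of *ELF3* lay between -0.58 and -0.50 under all 17 alternatives, and between -0.58 and -0.51 with 1 library left out. Its call ended in limma on log2(TPM + 1), at -0.499 (adjusted p = 0.022 with the filter and 0.11 without), and the number of the 10 factors called lower was then 0. *KLF5* was not called under any alternative, with values from -0.30 to -0.25. *FOXA1* turned to -0.025 in limma on log2(TPM + 1) with or without the filter and to -0.059 with a pseudocount of 0.1. With 1 library left out it ran from -0.030 (without CRE replicate 1) to 0.31, and *GRHL2* from -0.063 to 0.00031 (without CRE replicate 3). The cause was not tested. Genes called lower numbered 263 as reported, 411 with no filter, 626 with no limit on fold, 97, 86 and 12 in limma with pseudocounts of 1, 0.1 and 1 without a filter, and 143 to 270 with 1 library left out, the lowest without CRE+VAF347 replicate 3. Genes called higher numbered 77, then 187, 207, 43, 42 and 20 in the same order, and 58 to 110 with 1 library left out. Replicate numbers are not said to pair libraries, and same-numbered libraries deviated together only weakly (Pearson r 0.071, 0.10 and 0.046 over 11085 genes), although each library correlated best with its own number. With a replicate block *ELF3* was at -0.55 (adjusted p = 0.0015), and with the block and a GC offset at -0.501 (adjusted p = 0.0037). It was called in both, barely past the fold limit with the offset. The block ended the calls of *JAG1* (adjusted p = 0.066) and *FUT3* (0.069), which DESeq2's Wald test (*JAG1*, 0.098) and the GC offset (*FUT3*, 0.083) ended too. Depth limits the comparison to 5 factors, and of these *FOXA1* and *FOXJ1* had intervals wider than 1 log2 unit.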
